A study of Mus musculus with 45 samples.

Results

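The non-clustered protocadherins examined here were Pcdh1, Pcdh7, Pcdh9 and Pcdh11x of the delta-1 group, Pcdh8, Pcdh10, Pcdh17, Pcdh18 and Pcdh19 of the delta-2 group, and Pcdh20. They were chosen by gene symbol, as the 10 rows of the count table whose Ensembl identifiers map to these names, out of 54532 genes. Delta-protocadherins are single-pass membrane proteins of the cadherin superfamily that mediate weak homophilic adhesion between neurons and signal through their cytoplasmic tails. Several delta-2 members recruit the WAVE complex, which drives actin assembly, and delta-1 members carry a tail motif that binds protein phosphatase 1. Pcdh8, also called arcadlin, is known as a gene induced by synaptic activity whose protein promotes the internalization of N-cadherin at synapses.

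RNA was measured by sequencing in primary hippocampal neurons of newborn C57BL/6N mice, grown with AraC to limit glial division. The study asked how much of the loss of activity-dependent transcription comes from the end of AP firing (passive effect) and how much from toxic NMDA receptor signaling (active effect). There were 45 libraries in 9 conditions, with 5 libraries in each. The study describes 5 separate culture preparations, and the labels number the libraries of each condition 1, 3, 6, 7 and 8. These numbers are read here as the preparations. Neurons were left untreated (control) or received 50 µM bicuculline (Bic), a GABA type A receptor antagonist that induces AP firing, for 0.5, 1 or 2 h. In the short protocol (SP), 0.5 h of Bic preceded 0.5 h in 1 µM tetrodotoxin (TTX), which blocks AP firing, or in TTX plus 30 µM NMDA. The long protocol (LP) began with 1 h of Bic, after which the neurons spent 1 h in TTX, in TTX plus NMDA, or in 50 µM TBOA, which blocks glutamate uptake and causes glutamate spillover. By the methods of the study, Bic was also present during each of these interventions. The cultures hold mixed cell types, and a change in RNA per cell cannot be told apart from a change in the number of cells of a type.

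The libraries held 11316580 to 81129276 counts on genes, with a median of 26239614, and no pair of libraries was identical. Every member was well covered, from 71 counts in the library with fewest reads on Pcdh18 to 81317 counts in that with most on Pcdh8. Levels are given as CPM, counts relative to library size with TMM scaling, in the order of preparations 1, 3, 6, 7 and 8. Differences are log2 fold changes with standard errors (SE), tested with edgeR's quasi-likelihood test on the 5 libraries of each condition compared and adjusted over all genes with Benjamini-Hochberg, at a threshold of 0.05. That fit includes many genes with hardly any reads, and on simulated counts whose variance differed between genes it called more unchanged genes than its threshold allows. The fit over genes that pass edgeR's filterByExpr did not, and it made 76 of the 83 member calls of the main fit. Counts of members called are those of the main fit, and the 7 calls that the filtered fit did not make are named beside them with their adjusted p there.

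Promoter sequences are shown for Pcdh8, Pcdh10 and Pcdh17, the members that rose with Bic, and for Pcdh20, which had among the largest falls with NMDA. Each is the 250 bases before the RefSeq start on GRCm38.p6, in the direction of transcription, and capitals mark TGACG or its reverse complement, the core of the cAMP response element bound by CREB. The Pcdh8 stretch lies at chr14:79771313-79771562 (minus strand), the Pcdh10 stretch at chr3:45378148-45378397 (plus strand), the Pcdh17 stretch at chr14:84443313-84443562 (plus strand) and the Pcdh20 stretch at chr14:88471397-88471646 (minus strand).
Pcdh8: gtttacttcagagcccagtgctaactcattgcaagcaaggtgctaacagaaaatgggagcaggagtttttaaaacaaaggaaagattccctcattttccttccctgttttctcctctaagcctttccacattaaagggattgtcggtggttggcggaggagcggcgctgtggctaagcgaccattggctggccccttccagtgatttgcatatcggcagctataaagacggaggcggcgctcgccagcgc
Pcdh10: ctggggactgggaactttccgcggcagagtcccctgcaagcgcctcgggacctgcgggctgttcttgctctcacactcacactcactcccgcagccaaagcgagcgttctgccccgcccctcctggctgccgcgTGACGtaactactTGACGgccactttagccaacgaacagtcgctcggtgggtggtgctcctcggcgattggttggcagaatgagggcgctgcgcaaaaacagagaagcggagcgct
Pcdh17: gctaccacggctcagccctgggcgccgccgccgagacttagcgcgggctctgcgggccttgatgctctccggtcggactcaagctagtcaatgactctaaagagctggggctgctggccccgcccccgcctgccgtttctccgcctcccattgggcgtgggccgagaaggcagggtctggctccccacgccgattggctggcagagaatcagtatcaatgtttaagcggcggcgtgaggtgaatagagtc
Pcdh20: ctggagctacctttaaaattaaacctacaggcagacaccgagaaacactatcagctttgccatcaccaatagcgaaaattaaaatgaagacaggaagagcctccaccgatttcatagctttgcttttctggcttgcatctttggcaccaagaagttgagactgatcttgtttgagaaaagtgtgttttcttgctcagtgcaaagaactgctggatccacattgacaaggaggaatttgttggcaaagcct
The table of promoters held entries for 8 of the 10 members, and Pcdh1 and Pcdh11x had none. TGACG was present upstream of 2 of them, Pcdh10 with 2 matches and Pcdh9, and in 17.8% of all promoter stretches of this length. The full element TGACGTCA, which contains TGACG, the AP-1 motif TGAGTCA, the Egr motif GCGTGGGCG and the CArG box were found in 0 of the 8 members, against 1.55%, 4.46%, 0.536% and 1.47% of all stretches. The E-box CANNTG was found at Pcdh19 (66.2% of all stretches) and the Mef2 box at Pcdh20 (2.92%). Both strands were searched, and these matches describe letters in a short window only. Pcdh8 itself is a short gene on chromosome 14 (79766775 to 79771312, minus strand), and Pcdh17, Pcdh20 and Pcdh9 follow on the same chromosome, with Pcdh9 ending at 93890679.

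Pcdh8 stood out from the family during AP firing. Its level was 259, 258, 243, 301 and 232 CPM in the 5 control libraries and 433, 421, 348, 467 and 370 CPM after 0.5 h Bic. It reached 790, 548, 640, 778 and 736 CPM after 1 h and 1468, 1263, 1408, 1302 and 1153 CPM after 2 h. Every library of a later time exceeded every library of the time before. Pcdh8 rose against the control by 0.65 ± 0.09 (log2 fold change ± SE, adjusted p = 8.98e-07) after 0.5 h, by 1.43 ± 0.09 (adjusted p = 3.89e-15) after 1 h and by 2.34 ± 0.09 (adjusted p = 3.08e-21) after 2 h, a 5.06-fold change. It also rose from 0.5 to 1 h by 0.78 ± 0.08 (adjusted p = 2.95e-11) and from 1 to 2 h by 0.91 ± 0.08 (adjusted p = 1.25e-10).

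**Figure D1:**
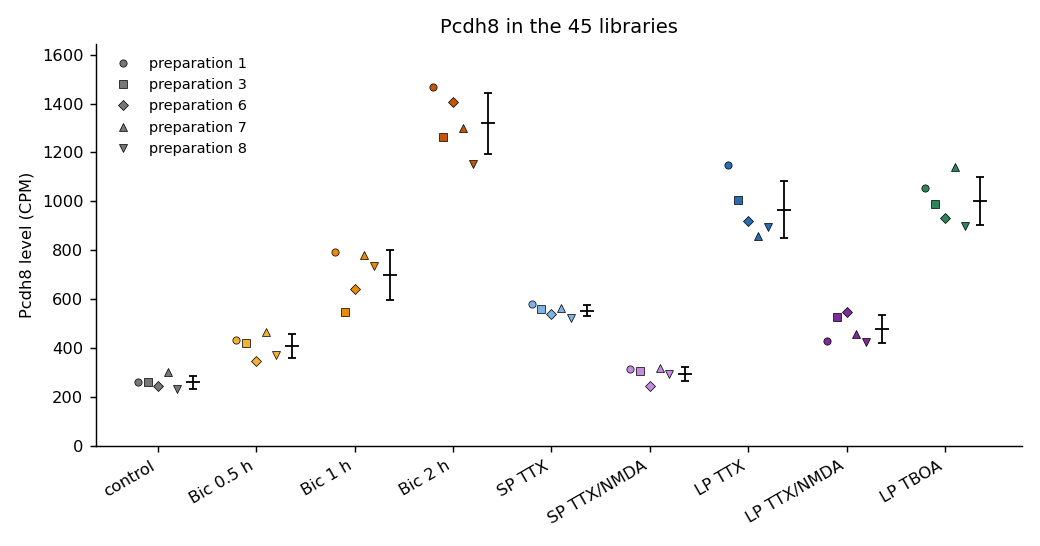
Pcdh8 level in CPM (vertical axis, from 0) in the 9 conditions, with 1 point per library (marker shape: culture preparation) and the mean ± SD of 5 libraries as a bar beside them. Means climb from 258 CPM in the control to 1319 CPM after 2 h Bic and are 477 CPM in the LP with TTX/NMDA.

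Pcdh8 was the sole member called after 0.5 h Bic, when 0.289% of all genes tested were called higher, and after 1 h, when 0.965% were. The other 9 members lay between −0.15 and 0.18 after 1 h. From 0.5 to 1 h it was again the sole member (0.634% of genes higher). After 2 h, 3 members were higher, against 4.24% of all genes and 8.18% of genes with a mean of at least 1 CPM, to which all 10 members belong. The share over genes of at least 1 CPM was the larger wherever both are given. Other comparisons of the main fit give only the share over all genes tested.

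Pcdh10 and Pcdh17, delta-2 members involved in synapse elimination and in the organization of presynaptic vesicles, were the others that rose after 2 h Bic. Pcdh10 went from 157, 140, 151, 163 and 154 CPM in the control to 206, 211, 193, 211 and 189 CPM, without overlap (0.39 ± 0.07, adjusted p = 0.000223). Pcdh17 went from 160, 123, 161, 168 and 154 CPM to 207, 186, 198, 213 and 169 CPM, also without overlap (0.33 ± 0.09, adjusted p = 0.00727). From 1 to 2 h, these 2 genes and Pcdh8 rose (2.53% of genes higher), Pcdh10 by 0.21 ± 0.06 (adjusted p = 0.0418) and Pcdh17 by 0.31 ± 0.07 (adjusted p = 0.00252). With the preparation as a block, Pcdh9 (adjusted p = 0.0389) and Pcdh18 (adjusted p = 0.0206) were called higher as well after 2 h and Pcdh20 lower (adjusted p = 0.0103). The block fit called 14.4% of genes higher and 15% lower. Shares given with the block, here and below, are over genes that pass filterByExpr and do not compare directly with shares over all genes tested. Over the same 15269 genes, the filtered fit without a block called 1273 higher and 1592 lower, against 2195 and 2284 with the block. The block also added Pcdh9 (adjusted p = 0.00538) and Pcdh18 (adjusted p = 0.042) from 1 to 2 h, with 11% of genes higher. Without preparation 8, 5 members were called after 2 h, when 1370 of 30275 genes were called higher and 1266 lower.

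The family's composition shifted with Pcdh8. Pcdh8 made up 16.3% ± 1.81 (SD, n = 5) of the members' summed CPM in the control and 47.7% ± 1.40 after 2 h Bic. The other 9 members summed to 1330 ± 102 CPM in the control and 1439 ± 59.8 CPM after 2 h Bic, and their ranges overlapped. Per kilobase of exon, Pcdh8 (57.0 CPM) and Pcdh1 (50.1 CPM) were the most abundant members in the control, and Pcdh11x (2.66 CPM) and Pcdh18 (1.23 CPM) the least. After 2 h Bic, Pcdh8 reached 291 CPM per kilobase against 49.8 for Pcdh1.

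**Figure D2:**
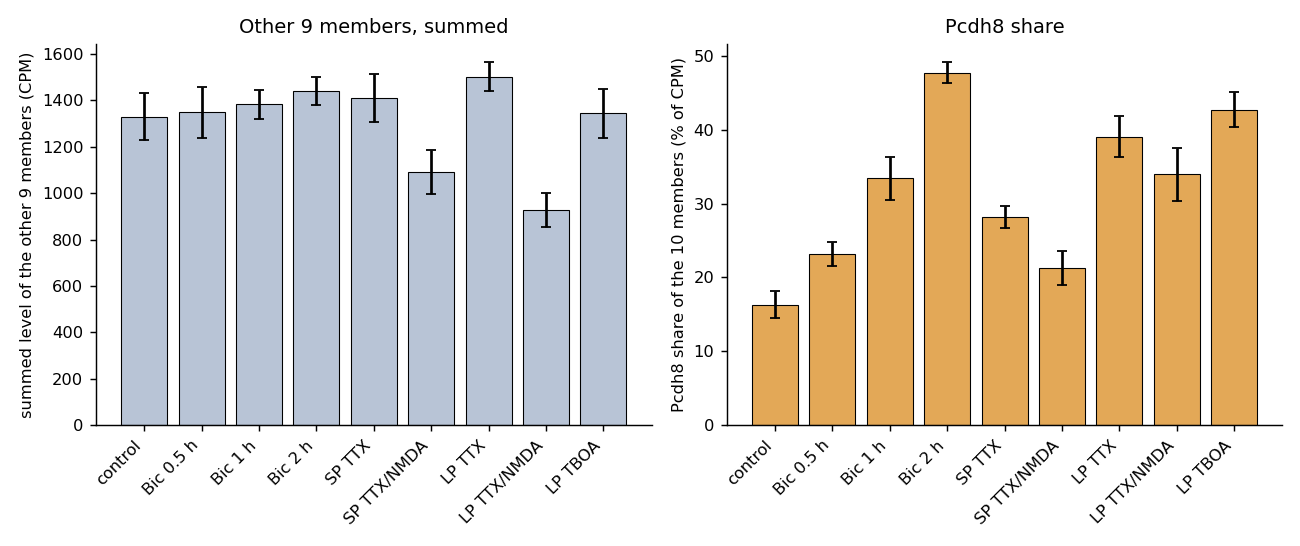
Left, the summed level of the 9 members other than Pcdh8 in CPM; right, the share of Pcdh8 in the summed CPM of the 10 members, in percent; bars are means and error bars SD of 5 libraries. The share of Pcdh8 is 16.3% in the control and 47.7% after 2 h Bic, and the other 9 members sum to 926 CPM in the LP with TTX/NMDA against 1502 CPM with TTX.

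The passive effect compared TTX with Bic continued for the same time, 1 h in the SP and 2 h in the LP. In the LP, Pcdh8 was 1148, 1007, 921, 856 and 895 CPM with TTX. Each of these values was below every library of 2 h Bic, and Pcdh8 fell by 0.46 ± 0.07 on the log2 scale (adjusted p = 9.44e-05), the sole member called (1.62% of genes lower). With the block, Pcdh11x was called higher (0.23, adjusted p = 0.0203), when 15.7% of genes were higher and 16.2% lower. Without preparation 3, 2 members were called, when 807 of 31056 genes were called higher and 319 lower. In the SP, Pcdh8 had 580.5, 559, 538, 563 and 522 CPM with TTX, which overlapped the libraries of 1 h Bic. Its difference of −0.34 ± 0.08 passed in the main fit (adjusted p = 0.0402; 0.252% of genes lower) but not in the filtered fit (adjusted p = 0.304), nor with the block (adjusted p = 0.0651; 0.489% of genes in either direction), nor without preparation 1 or 7. No member passed the test of a difference between the passive effects of the protocols in the main edgeR fit (0.256% of genes called in either direction, and 88 in all). With the block, Pcdh20 differed (−0.29, adjusted p = 0.0343), when 0.387% of genes were called lower.

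The active effect compared TTX/NMDA with TTX alone. In the LP, 9 of 10 members were called lower in the main fit and 8 in both fits, against 11.8% of all genes tested and 26.9% of genes with a mean of at least 1 CPM. The median log2 fold change was −0.70 over the members and −0.01 over genes with a mean of at least 1 CPM. The call that the filtered fit did not make was that of Pcdh11x (−0.45 ± 0.13, adjusted p = 0.0116, and 0.056 in the filtered fit). The block called 9 members lower as well, when 4674 of 16399 genes were lower.

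Among the delta-2 members, Pcdh8 had 427, 525, 548, 458 and 426 CPM with TTX/NMDA, all below the lowest library with TTX. It fell by 1.03 ± 0.08 (adjusted p = 7.94e-11). Pcdh17 was 217, 182, 230, 220 and 204 CPM with TTX and 121, 125, 133.6, 122 and 151 CPM with TTX/NMDA, and fell by 0.70 ± 0.07 (adjusted p = 1.84e-08). Pcdh19, the X-linked gene mutated in an epilepsy that mostly affects girls, fell by 0.54 ± 0.07 (adjusted p = 1.23e-06), from a mean of 199 ± 13.2 to 138 ± 14.9 CPM (SD, n = 5). Pcdh10 fell by 0.25 ± 0.06 (adjusted p = 0.0039), and its 2 groups did not overlap. Pcdh18, the member of lowest level, had a mean of 9.12 ± 0.811 CPM with TTX and 9.22 ± 1.75 CPM with TTX/NMDA (SD, n = 5). These groups overlapped, and the difference was 0.01 ± 0.12 (adjusted p = 0.947).

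Among the delta-1 members, Pcdh1 had 484, 430, 423, 431 and 485 CPM with TTX and 217, 203, 204, 200 and 261 CPM with TTX/NMDA in the LP. The groups lay far apart, and Pcdh1 fell by 1.06 ± 0.07 (adjusted p = 5.63e-12), a 2.09-fold change. Pcdh7 fell by 0.74 ± 0.07 (adjusted p = 1.26e-09), from 148 ± 8.43 to 88.9 ± 7.29 CPM. Pcdh9 fell by 0.70 ± 0.08 (adjusted p = 2.7e-08), from 193 ± 14.6 to 119 ± 14.1 CPM. Pcdh20, listed here apart from the delta-1 and delta-2 groups, had 48.1, 48.7, 59.2, 47.4 and 41.97 CPM with TTX. With TTX/NMDA it had 20.3, 26.9, 23.5, 18.1 and 29.5 CPM, without overlap (−1.06 ± 0.10, adjusted p = 3.45e-09).

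**Figure D3:**
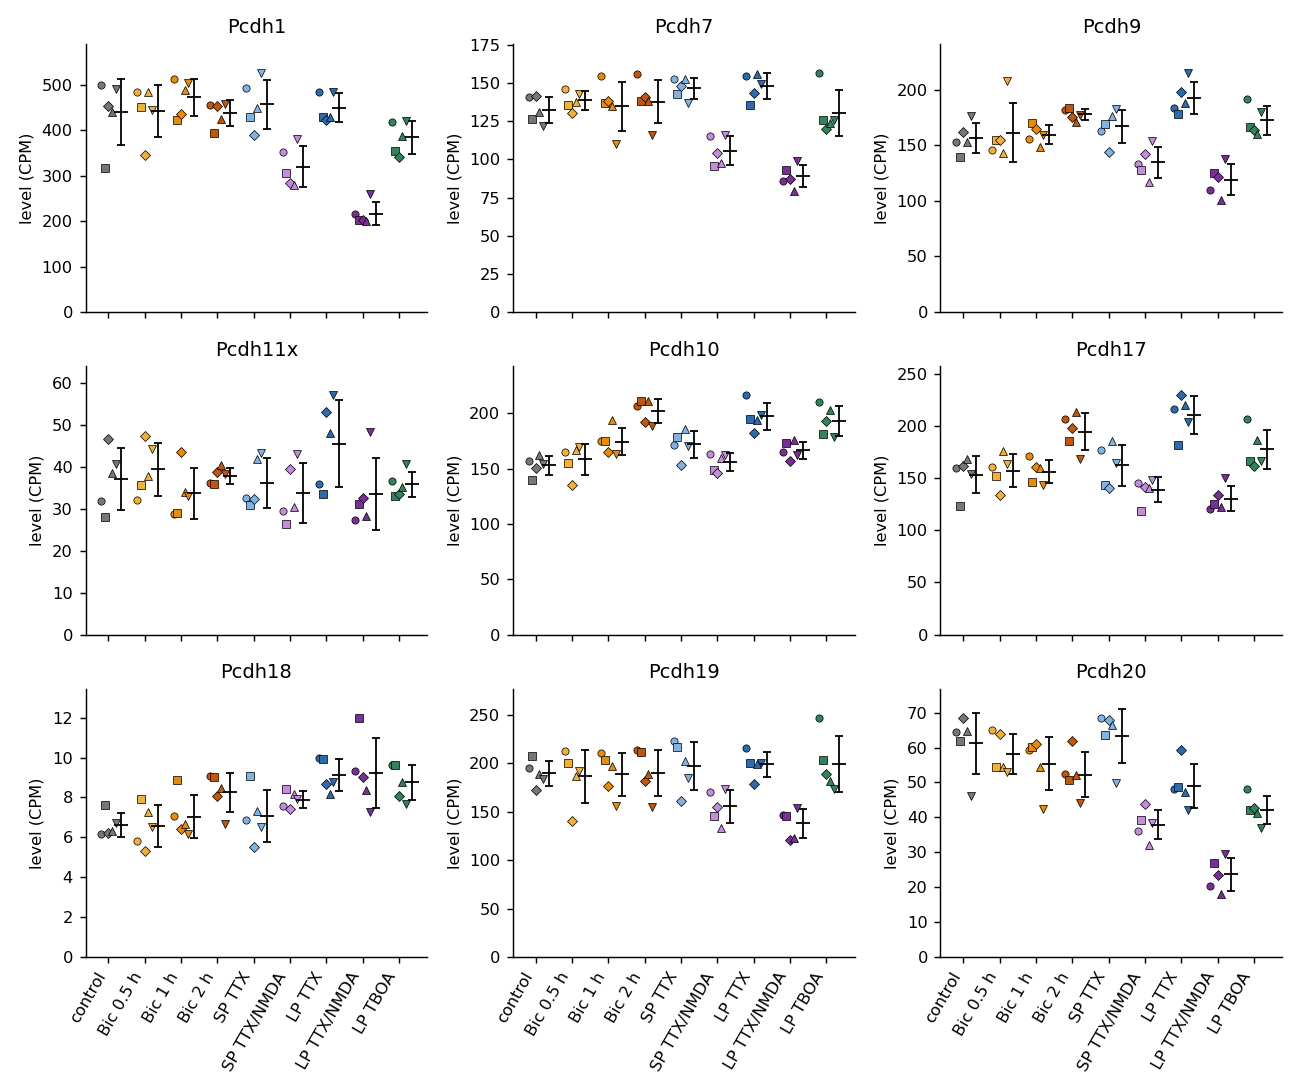
Levels in CPM (vertical axes, each from 0) of the 9 members other than Pcdh8 in the 9 conditions, with 1 point per library (shape: preparation) and mean ± SD of 5 libraries. In the LP with TTX/NMDA, Pcdh1 has a mean of 217 CPM and Pcdh20 of 23.6 CPM, and Pcdh18 has its highest mean of 9.22 CPM.

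Cell type markers moved with this condition. The 4 glutamatergic neuron markers summed to 2034 to 2591 CPM with TTX and 963 to 1433 CPM with TTX/NMDA in the LP, and the 6 general neuron markers to 6187 to 6715 and 5285 to 5614 CPM. The 6 astrocyte markers summed to 433 to 912 and 780 to 1632 CPM, and the 5 GABAergic markers to 1662 to 2485 and 1909 to 2863 CPM. The 4 markers of oligodendrocyte precursors summed to 65.3 to 122 and 130.5 to 255 CPM, without overlap. The 6 markers of mural cells and fibroblasts summed to 80.5 to 156 and 108 to 231 CPM, and the 5 oligodendrocyte markers to 36.2 to 53.8 and 28.8 to 80.4 CPM. Microglia (5.36 to 8.76 CPM summed over 6 markers) and endothelial cells (1.37 to 3.27 CPM over 4 markers) were near 0 in both. No marker of these lists was at 0 in all libraries, and the part of these shifts in the members' differences was not tested.

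In the SP, 6 members were called lower, against 3.32% of all genes and 7.81% of genes with a mean of at least 1 CPM. Pcdh8 had 312, 306, 245, 316 and 291 CPM with TTX/NMDA, all below the libraries with TTX, and fell by 0.92 ± 0.07 (adjusted p = 2.81e-11). Pcdh20 fell by 0.75 ± 0.08 (adjusted p = 1.25e-07), Pcdh1 by 0.52 ± 0.09 (adjusted p = 9.6e-05) and Pcdh7 by 0.48 ± 0.07 (adjusted p = 1.34e-05), each without overlap between groups. Pcdh19 and Pcdh9 fell by 0.35 and 0.32 with overlapping groups. The 4 members not called ranged from −0.23 (Pcdh17, called with the block at an adjusted p of 0.0397, when 10.3% of genes were lower) to 0.17 (Pcdh18). The 4 glutamatergic markers summed to 1983 to 2560 CPM with TTX and 1327 to 1844 CPM with TTX/NMDA in the SP. The 5 GABAergic markers summed to 1444 to 1869 and 1707 to 2493 CPM, and the 6 astrocyte markers to 484 to 1073 and 483 to 1022 CPM. The part of these shifts in the SP differences was not tested either.

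The difference between the protocols was tested directly. Pcdh1 fell more in the LP than in the SP by 0.53 ± 0.12 (adjusted p = 0.0108) and Pcdh17 by 0.45 ± 0.11 (adjusted p = 0.0207), in 5 of 5 preparations each, when 1.85% of genes had a lower active effect in the LP. Without preparation 1 neither was called. Without preparation 6 a single member was, when 192 of 34439 genes were called higher and 423 lower. With the block, Pcdh9 (adjusted p = 0.00419) and Pcdh7 (adjusted p = 0.0264) were added, against 15.1% of genes. For Pcdh8 the difference was −0.09 ± 0.11 (adjusted p = 0.841).

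**Figure D4:**
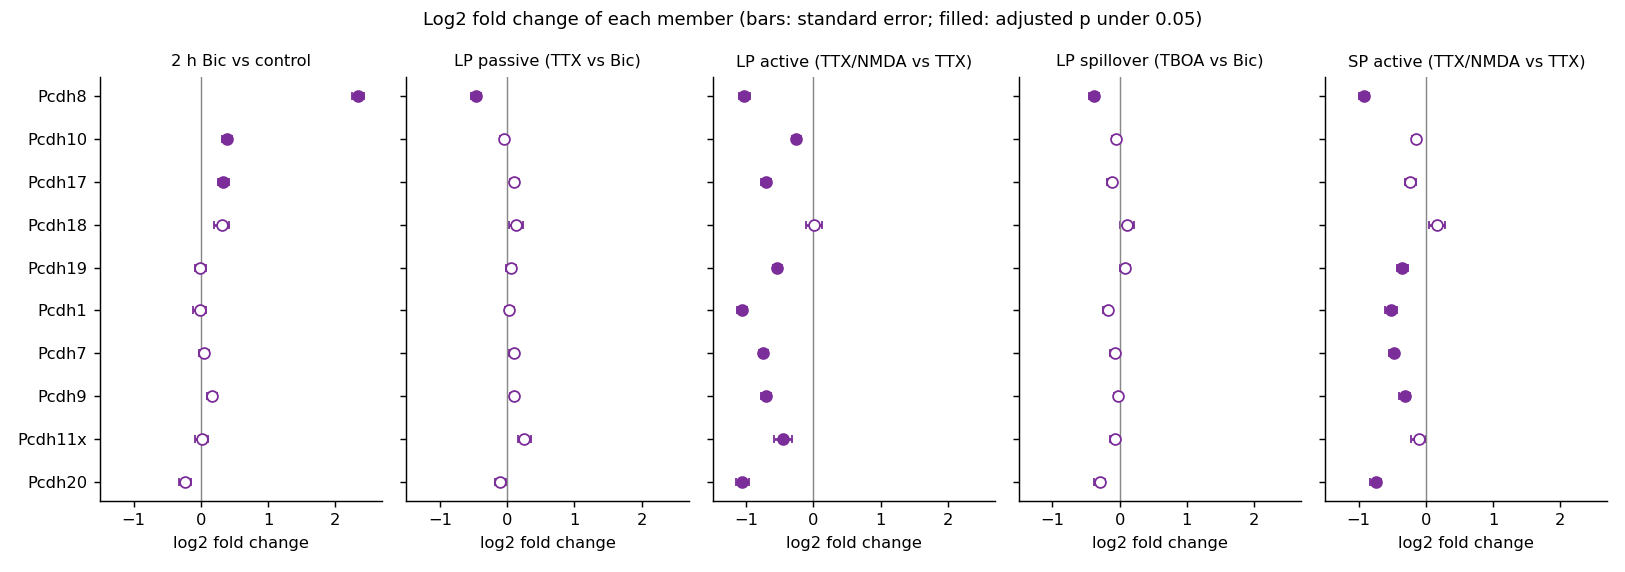
Log2 fold change (horizontal axis, bars: SE) of the 10 members (rows) in 5 comparisons; filled points passed an adjusted p of 0.05 in the main fit. The LP active effect has 9 filled points below 0, from −0.25 (Pcdh10) to −1.06 (Pcdh1 and Pcdh20), and 2 h Bic has Pcdh8 at 2.34.

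The total effect compared TTX/NMDA with Bic of the same duration. In the LP, 8 members were called lower, against 11.1% of all genes and 25.1% of genes with a mean of at least 1 CPM. Pcdh8 fell by 1.48 ± 0.08 (adjusted p = 1.07e-15), Pcdh20 by 1.16 ± 0.10 (adjusted p = 5.18e-11) and Pcdh1 by 1.03 ± 0.07 (adjusted p = 7.29e-13). Pcdh11x (−0.19) and Pcdh18 (0.15) were not called. In the SP, 6 were called in the main fit (3.41% of genes lower), led by Pcdh8 (−1.25 ± 0.08, adjusted p = 1.08e-13). Of these, 5 were called in both fits, and Pcdh19 did not pass in the filtered fit (adjusted p = 0.0594). The block added Pcdh10 (−0.17, adjusted p = 0.0122) and Pcdh17 (−0.18, adjusted p = 0.0125), when 15.6% of genes were lower. The total effect was lower in the LP than in the SP for Pcdh20 (−0.60 ± 0.15, adjusted p = 0.0222) and Pcdh17 (−0.41 ± 0.11, adjusted p = 0.031), when 1.08% of genes were. Pcdh1 (−0.46 ± 0.12, adjusted p = 0.0271) did not pass in the filtered fit (adjusted p = 0.0501), and Pcdh9 was added by the block (−0.33, adjusted p = 0.00398), when 11.1% of genes were lower. Without preparation 1, and without preparation 6, no member was called in this comparison. Without preparation 3 a single one was, when 76 of 33358 genes were called higher and 149 lower.

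Glutamate spillover, TBOA against 2 h Bic, gave a call for Pcdh8 alone among the members (0.549% of genes lower). Its level was 1054, 988, 932, 1142 and 897 CPM with TBOA, below every library of 2 h Bic, and it fell by 0.38 ± 0.07 (adjusted p = 0.00195). Pcdh20 was at −0.30 ± 0.08 (adjusted p = 0.0525) and was called with the block (adjusted p = 0.00963), when 2.23% of genes were lower. It was also called without preparation 1 or 8, when 2 members were called, against 116 of 30444 and 365 of 30953 genes lower. Against TTX, TBOA differed by 0.06 ± 0.07 for Pcdh8 (adjusted p = 0.718). Pcdh17 (−0.24 ± 0.07) and Pcdh11x (−0.34 ± 0.10) passed in this comparison in the main fit (3.5% of genes lower) but not in the filtered fit (adjusted p = 0.0835 and 0.157). Without preparation 6 or 7 neither was called. Without preparation 8 a single one was, when 344 of 31667 genes were called higher and 1016 lower. The block added Pcdh1 (−0.21, adjusted p = 0.0106), when 8.74% of genes were lower. TTX/NMDA lay below TBOA for 8 members (7.99% of genes lower), from Pcdh10 at −0.22 ± 0.07 to Pcdh8 at −1.08 ± 0.08 (adjusted p = 4.35e-12).

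The arms were also set against the level at which each intervention began. After 1 h of TTX in the LP, Pcdh8 was 0.46 ± 0.08 above 1 h Bic (adjusted p = 0.000174), and it was 0.52 ± 0.08 above it with TBOA (adjusted p = 2.62e-05). With TTX/NMDA it was 0.56 ± 0.09 below it (adjusted p = 4.57e-06), with overlapping libraries, and in the SP 0.49 ± 0.08 below 0.5 h Bic (adjusted p = 0.000112). With TTX, 5 members were called higher than at 1 h Bic in the main fit (4.34% of genes) and 4 in both fits, Pcdh17 by 0.42 ± 0.07, Pcdh18 by 0.36 ± 0.11 and Pcdh9 by 0.26 ± 0.07 beside Pcdh8, while Pcdh11x did not pass in the filtered fit (adjusted p = 0.0781). The block added Pcdh10 as higher (adjusted p = 0.0198) and Pcdh20 as lower (adjusted p = 0.0184), when 14.8% of genes were higher and 14.4% lower. With TTX/NMDA, 7 members were lower (10.2% of genes), with Pcdh20 at −1.24 ± 0.10 and Pcdh1 at −1.13 ± 0.08, and Pcdh18 was higher by 0.38 ± 0.13 (adjusted p = 0.0284; 10.9% of genes).

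With TBOA, Pcdh8 was the single member higher than at 1 h Bic (1.41% of genes), and Pcdh1 (−0.30 ± 0.07) and Pcdh20 (−0.40 ± 0.08) were lower (2.05% of genes). The block added Pcdh10, Pcdh17 and Pcdh18 as higher in that comparison, against 5.83% of genes, with 7.88% lower. In the SP, 4 members were lower with TTX/NMDA than at 0.5 h Bic (2.58% of genes), Pcdh8, Pcdh20, Pcdh1 and Pcdh7. The block called 8 lower (17.3% of genes) and Pcdh18 higher (15.1% of genes).

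Pcdh8 and 5 other members ended on opposite sides of the untreated level. In the LP with TTX/NMDA, Pcdh8 was still 0.88 ± 0.09 above the control (adjusted p = 2.79e-09), with every library above every control library. Pcdh18 was above it by 0.48 ± 0.13 (adjusted p = 0.00694; 10.9% of genes higher). Pcdh20 (−1.37 ± 0.11), Pcdh1 (−1.03 ± 0.10), Pcdh7, Pcdh19 and Pcdh9 were below it (8.55% of genes lower), and Pcdh17 was too with the block (−0.22, adjusted p = 0.0332; 22.8% of genes lower). In the order of its 9 condition means, Pcdh8 was highest after 2 h Bic (1319 ± 124 CPM), and TBOA (1003 ± 97.8 CPM) and TTX (965 ± 116 CPM) in the LP followed with overlapping libraries. Then came 1 h Bic, TTX in the SP, TTX/NMDA in the LP and 0.5 h Bic, each overlapping its neighbour, and last TTX/NMDA in the SP (294 ± 29.1 CPM) and the control (258 ± 26.3 CPM), which overlapped each other.

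Related gene groups were read from the same fit of the LP active effect, in which 11.8% of all genes tested and 26.9% of genes with a mean of at least 1 CPM were called lower. These shares are the background for each count that follows, and nothing is read as particular to a list. Of 57 clustered protocadherins with reads, which give neurons individual surface identities, 44 were called lower and 0 higher, with a median of −0.70. Of 13 WAVE complex and Ena/VASP genes, 7 were lower and 1 higher (median −0.23), among them Nckap1 (−0.76 ± 0.08) and Cyfip2 (−0.60 ± 0.07), core WAVE subunits. Of 15 type I and type II classic cadherins, 6 were lower and 2 higher, with Cdh8 at −0.68 ± 0.08 and Cdh4 at 0.49 ± 0.10. Of 14 other large cadherin genes, 10 were lower and 1 higher, with Fat3 at −0.96 ± 0.12. Of 11 other partner genes, 4 were lower and 0 higher, with Cdh2, the N-cadherin that binds Pcdh8, at −0.32 ± 0.07. These lists' medians compare with −0.01 over genes with a mean of at least 1 CPM.

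Some genes had condition profiles close to those of the members, by Pearson's r over 9 condition means among 13592 genes with a mean of at least 1 CPM. The closest to Pcdh8 were Rgs4 (r = 0.997), Erf (0.992), Csrnp1 (0.989), Pde4d (0.987) and Dusp4 (0.985). Pearson's r takes no account of the size of changes. Pcdh8 ranged over 2.35 on the log2 scale, Rgs4 over 1.63, Erf over 1.85, Csrnp1 over 3.51, Pde4d over 0.72 and Dusp4 over 1.91. By Euclidean distance between centred profiles, Erf (0.524) and Dusp4 (0.632) lay nearer to Pcdh8 than Rgs4 (0.661), Csrnp1 (1.29) and Pde4d (1.56). For Pcdh20, close profiles were those of 2010300C02Rik (0.992), Wwc2 (0.990), Gpr63 (0.988) and Chrm1 (0.986), and for Pcdh1 they were Stum (0.995), M5C1000I18Rik (0.994), Vps26b (0.994), 4921539H07Rik (0.994) and Ksr2 (0.993). The condition means share their libraries and preparations, so these values are descriptions.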

How the data were processed

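Poly-A RNA of mouse hippocampal neurons was sequenced by the authors with strand-specific libraries and single-end reads. The authors aligned reads with STAR (version 2.5.4b) to GRCm38 with Ensembl annotation, used featureCounts (version 1.6.5) to count uniquely mapped sense reads of each gene, and deposited raw counts. Gene names, positions and exon lengths were taken from GENCODE M21 on the same build, which named 54409 of 54532 genes, and promoters from RefSeq.

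The members, gene lists and markers were chosen with earlier results of these data known. All 10 members are named. The other genes named are the 5 closest profiles of Pcdh8 and of the 2 other members of widest range (1 of those of Pcdh20 is not reported here), and examples from each list among those most changed in the LP active effect. Each comparison was fitted with edgeR (version 4.0.16, R 4.3.3) on its own libraries, over genes with at least 1 read, with TMM scaling and quasi-likelihood tests, and adjusted p-values are Benjamini-Hochberg over all genes tested. The test was checked on simulated counts with known changes. With dispersions that followed the abundance trend alone its false calls stayed within the threshold. With dispersions that differed between genes, it called more unchanged genes than its threshold allows, and the fit with filterByExpr did not. The simulation changed far fewer genes than the LP active effect called and held no preparation effect. It therefore does not give the share of false calls of either fit in these data. In the real fits, prior degrees of freedom were 20.4 to 60.9 over all genes and 5.49 to 7.1 with filterByExpr, so the main fit allowed less for differences in variance between genes. The main fit was kept because its design had been set, and each member call is read together with the filtered fit.

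Alternatives were DESeq2 (version 1.42.0), RLE scaling, all 45 libraries in 1 fit, filterByExpr, each preparation left out, and the preparation as a replicate block. The labels give each library a number without saying what it marks. It was read as a culture preparation shared across conditions, which would pair the libraries. The mean correlation of the deviations of same-numbered libraries from the mean of their condition was 0.454 (−0.363 to 0.800 over 180 pairs), against −0.112 over 720 other pairs. P-values of the main and filtered fits rest on the spread between libraries within a condition, partly shared across genes, and do not use the pairing. The block fit takes differences between preparations out of that spread.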

Additional observations from a re-analysis of the deposited data

Results flagged for a closer look

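In 7 of the 90 groups of 5 libraries, 1 library stood apart from the other 4 by Dixon's test at 95%, which chance does in about 1 of 20 groups. Pcdh1 was low at 347 CPM in preparation 6 after 0.5 h Bic (others 445 to 485 CPM), and high at 261 CPM in preparation 8 with TTX/NMDA in the LP (others 200 to 217 CPM). Pcdh11x was high in that same library, at 48.3 CPM (others 27.3 to 32.6 CPM). Preparation 8 also held the high Pcdh9 value of 208 CPM after 0.5 h Bic (others 143 to 155 CPM) and the low Pcdh20 value of 49.8 CPM with TTX in the SP (others 63.6 to 68.4 CPM). Pcdh7 was high at 157 CPM in preparation 1 with TBOA (others 120 to 126 CPM), and Pcdh17 was low at 118 CPM in preparation 3 with TTX/NMDA in the SP (others 140 to 149 CPM).

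The effects of the protocols differed by a test of the difference itself for Pcdh1 (−0.53) and Pcdh17 (−0.45) in the active effect, and for Pcdh20 (−0.60) and Pcdh17 (−0.41) in the total effect, all on the log2 scale as LP minus SP. For Pcdh1 in the total effect (−0.46), the test passed in the main edgeR fit but not in the filtered fit (adjusted p = 0.0501). These differences are between protocols that differ in the length of Bic and of the intervention, which cannot be told apart.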

How the results depend on the processing

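All 540 alternative condition means moved by less than 1 SD. Of 1510 alternative log2 fold changes of single members, 1390 kept their direction and side of the threshold, 64 lost and 55 gained a call, and 1 reversed: the uncalled difference of Pcdh11x between passive effects was −0.059 without replicate 6, and its values with 1 replicate left out ran from −0.059 to 0.23. Of 220 alternative counts of members called, 187 stayed within 1.5 times. The replicate block over filterByExpr genes called 6 members after 2 h Bic, 5 from 1 to 2 h, 0 in the SP passive, 2 in the LP passive, 2 in the spillover effect, 9 for TTX/NMDA against 0.5 h Bic, 6 for TBOA against 1 h Bic, and 1 and 4 in the passive and active differences between protocols. It moved no other count by more than 1.5 times. The SP passive effect had 0 members with DESeq2, filterByExpr and all 45 libraries in 1 fit, and TBOA against TTX had 0 with the same 3 and 1 with RLE size factors. DESeq2 and RLE size factors each gave 2 for spillover, and all 45 libraries gave 1 for the total difference. Leaving out 1 replicate gave 3 to 5 members after 2 h Bic, 0 to 1 in the SP passive, 1 to 2 in the LP passive and 1 to 2 in the spillover effect, 0 to 3 for TBOA against TTX, and 0 to 3 and 0 to 4 in the active and total differences. The filterByExpr fit withheld 7 of 83 member calls and added 0. The counts of members in this paragraph carry no share of all genes and describe the dependence on processing only. Other causes of these moves were not tested.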
